A study of Mus musculus with 24 samples.

Results

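The 2 Eed knockout (KO) mouse embryonic stem cell (ESC) lines of the series, E14 KO and J1 KO, were compared on days 0, 3 and 7. The arrays were chosen by title: 6 Eed KO arrays with E14 against 6 with J1, which makes 12 of the 24 arrays. Day 0 is undifferentiated ESCs grown with LIF on inactivated feeder fibroblasts. Days 3 and 7 are embryoid bodies (EBs), aggregates grown in hanging drops after feeders and LIF were removed. Each line was measured with 2 arrays a day, and the other 12 arrays hold wild-type (WT) J1 and V6.5 cells, laid out the same way. E14 KO and J1 KO share the loss of Eed and received no other named treatment. The alleles are not named in the labels, each KO line enters as 1 clone, and no E14 WT array was analysed here. Parental line, clone, Eed allele and culture history therefore cannot be told apart in any difference below. Whether both arrays of a line and day stem from independent cultures is not stated. The p-values below therefore reflect only the scatter among these samples, part or all of which may be technical.

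The protein EED holds together PRC2, the Polycomb complex that places methyl groups on lysine 27 of histone H3 and so helps to keep developmental genes silent. ESCs without PRC2 still self-renew, but they express lineage and germline genes too early and differentiate poorly. ESC lines also differ among themselves through strain background, selection in culture and chromosome changes, which are known to arise during ESC culture. Day 0 therefore compares the KO lines as ESCs, and the EBs compare the courses they take once LIF is withdrawn.

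The arrays were Affymetrix Mouse Gene 1.0 ST arrays, and values are log2 RMA levels, so that a difference of 1 is 2-fold. The number of arrays limits the precision. Eed was not called between the KO lines on average (E14 KO minus J1 KO 0.17 ± 0.16 SE, adjusted p = 0.66). Its level lay between 5.76 and 7.48 in the 12 KO arrays and between 9.37 and 11.02 in the 12 WT arrays, without overlap. Y-linked Eif2s3y was present in both KO lines at 9.27 to 10.01, and Pou5f1, the defining ESC regulator, at 12.30 to 12.51 on day 0. Repeat arrays correlated across genes at r = 0.990 or more in every pair of the series except J1 WT on day 7 (r = 0.962). That pair enters the pooled estimate of the spread and widens the errors below.

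Of 19938 genes tested with limma, 38 (0.191%) differed between the KO lines when averaged over days, 27 of them higher (0.135%) and 11 lower (0.0552%) in E14 KO. To be called, a gene needed a difference of 2-fold or more and an adjusted p (Benjamini-Hochberg, all genes) under 0.05. By day, 79 genes (0.396%) were called on day 0, 50 of them higher in E14 KO (0.251%) and 29 lower (0.145%). Only 9 genes (0.0451%) were called on day 3, 6 of them higher in E14 KO (0.0301%) and 3 lower (0.015%). Day 7 had 199 calls (0.998%), 148 higher (0.742%) and 51 lower (0.256%). In all, 257 genes were called on at least 1 day. Of these, 25 were called on both day 0 and day 7, 0 of them in opposite directions, while Msc and Rnf17 alone were called on all 3 days. The counts rest on few arrays. Without the second E14 KO array of day 0 the day 0 count fell to 14, without either J1 KO array of day 0 it was 41 or 23, and the day 3 count ranged from 1 to 27 when a day 3 array was left out. The day 7 count was 115 without the second J1 KO array of that day and lay between 144 and 211 in the other omissions.

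**Figure D1:**
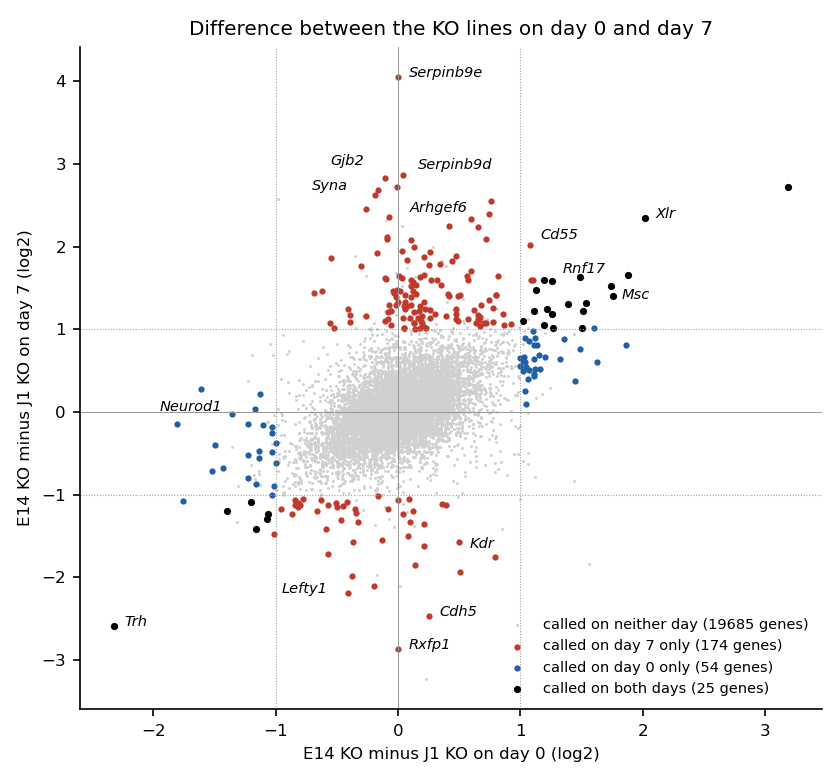
Difference between the KO lines (E14 KO minus J1 KO, log2, means of 2 arrays each) on day 0 (x axis) and day 7 (y axis) for 19938 genes, each point 1 gene. Of the coloured genes 54 were called on day 0 only (blue), 174 on day 7 only (red) and 25 on both (black). On the day 0 axis the 148 genes higher in E14 KO on day 7 have a median of 0.21 and the 51 lower -0.41.

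The 38 genes called on average were checked against a strict rule for a constant difference. All 12 arrays were separated by line in 14 of them, against 2.94% of all genes. The difference had the same sign on 3 days in 36, and reached 2-fold on each day in 6. In 14 the daily differences spanned more than 1 log2 unit, while the F test of change with day, given below, called 1 of the 38. Only Msc, Rnf17, Scml2 and Cd55 met every condition set for a constant difference. The conditions were a call on average, at least 2-fold on each day, no overlap of arrays, and daily differences within 1 of each other. A gene that missed them need not differ between days.

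Msc encodes musculin, a basic helix-loop-helix repressor of transcription. Its level in E14 KO was 8.98 and 9.33 on day 0, 8.18 and 8.31 on day 3, and 8.68 and 8.22 on day 7. In J1 KO it was 7.30 and 7.53, then 7.12 and 6.93, then 6.88 and 6.97. Every E14 KO array was above every J1 KO array, and the average difference was 1.49 ± 0.103 SE (2.82-fold, adjusted p = 4.4e-07). On day 0 the V6.5 WT arrays (8.57 and 8.41) also lay above J1 WT (7.00 and 6.87). By day 7 both WT lines had Msc at 6.45 to 6.74, so the high level in E14 KO EBs had no WT counterpart here.

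Rnf17 encodes a Tudor domain protein of the germline piRNA pathway. E14 KO arrays read 9.74 and 9.54 on day 0, 8.95 and 9.63 on day 3, and 9.81 and 9.27 on day 7. J1 KO arrays read 8.50 and 8.26, 7.86 and 7.87, and 7.90 and 8.02. The lines did not overlap on any day, and the average difference was 1.42 ± 0.133 SE (2.68-fold, adjusted p = 6.4e-06). In both WT lines Rnf17 was at 6.04 to 6.42 on day 7, below every KO array.

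Scml2, an X-linked gene for a Polycomb-group protein of the male germline, differed by 1.43 ± 0.141 SE (2.70-fold, adjusted p = 1e-05). Its E14 KO arrays lay between 7.04 and 8.56 and its J1 KO arrays between 6.25 and 6.88. J1 WT was at 5.99 to 6.79, close to J1 KO, and every E14 KO array was above every WT array. Cd55, whose product protects cells from complement, differed by 1.41 ± 0.266 SE (2.67-fold, adjusted p = 0.002). E14 KO had Cd55 at 8.51 and 8.16 on day 0 and 9.65 and 8.59 on day 7, against 7.32 and 7.20, and then 7.38 and 6.82, in J1 KO. On day 7 the V6.5 WT arrays were at 9.58 and 9.80 and the J1 WT arrays at 7.02 and 9.22, so the E14 KO level was not above that of all WT cells.

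**Figure D2:**
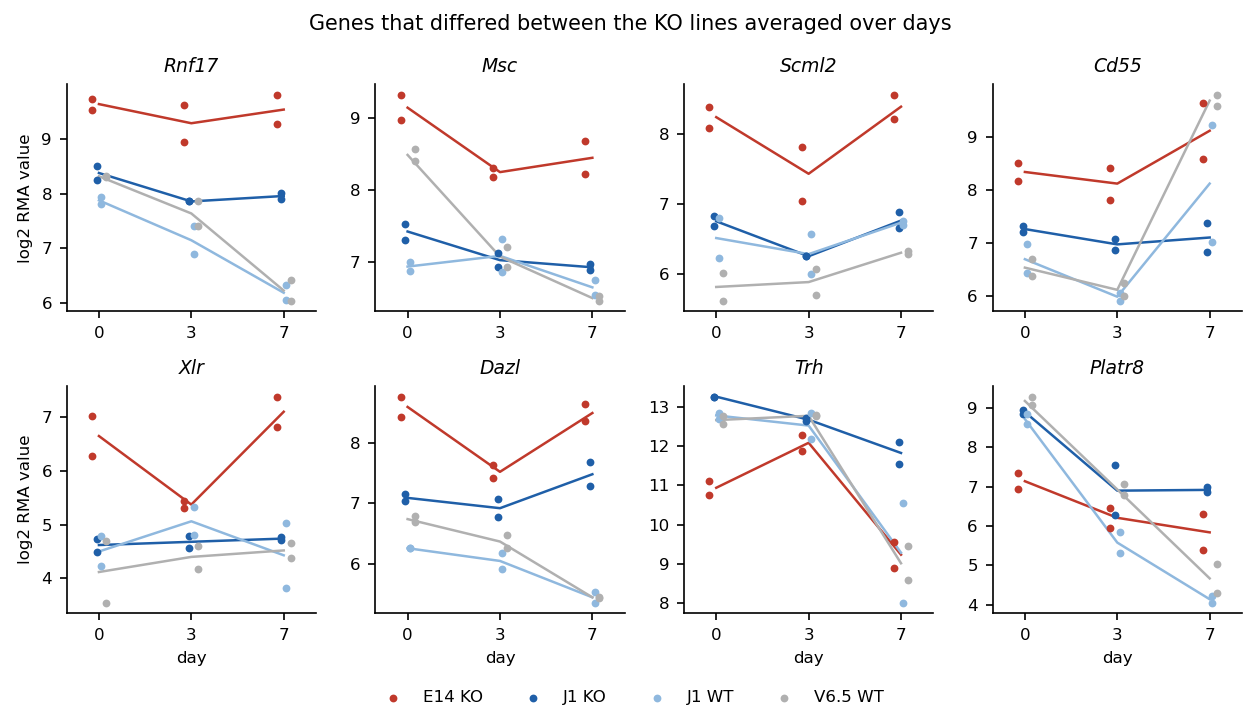
Level of 8 genes (log2 RMA value, y axis) by day (x axis) in the 4 clones. Each point is 1 array and lines join the means of 2 arrays. E14 KO (red) lies above J1 KO (dark blue) on each day for Rnf17, Msc, Scml2, Cd55, Xlr and Dazl and below it for Trh and Platr8.

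Several germline genes were called higher in E14 KO. Of 24 members of the germline and meiosis list, 3 were higher in E14 KO on average (Rnf17, Dazl and Smc1b) and 0 lower. On day 0 the count was 4, with Rhox13 added to those 3, and on day 7 it was 4: Rnf17, Rhox13, Taf7l and Dazl. For scale, 0.135% of all genes were called higher in E14 KO on average, 0.251% on day 0 and 0.742% on day 7. The members of this list and of every list below were chosen with earlier results of these data known. Counts set beside the share of all genes therefore describe the calls and support nothing further. The list median was 0.52 on day 0, 0.22 on day 3 and 0.10 on day 7, with 21, 17 and 14 of 24 members on the E14 KO side. Dazl, an RNA-binding protein needed for germ cells, read 8.42 and 8.76 in E14 KO on day 0 against 7.04 and 7.15 in J1 KO, a difference of 1.5 ± 0.166 SE (adjusted p = 0.00013). On day 3 the lines were closest (7.42 and 7.63 against 6.78 and 7.07), and on day 7 they were apart again (8.35 and 8.64 against 7.28 and 7.69). WT arrays had Dazl at 5.36 to 6.79, with the highest level in V6.5 WT on day 0, and both KO lines were above WT on each day. Smc1b, the meiosis-specific cohesin subunit, differed by 1.36 ± 0.271 SE on day 0 (8.87 and 8.72 against 7.55 and 7.32), and Rhox13, an X-linked homeobox gene of germ cells, by 1.26 ± 0.153 SE. Rec114, which is outside the list and acts in meiotic DNA breaks, was higher in E14 KO on average by 1.16 ± 0.125 SE (adjusted p = 2e-05, chosen after its values were seen). Without single arrays the average differences of Dazl and Smc1b fell to as little as 0.97 and 0.82, just under the 2-fold limit, and the day 0 call of Smc1b was lost in 4 omissions.

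Germline genes silenced by Polycomb and DNA methylation often carry CpG-rich promoters with an E-box or an E2F6-type motif. The 250 bases before the annotated start are therefore shown for 3 of these genes, from RefSeq (GRCm38.p6), 5′ to 3′ on the coding strand. The table held no window for Rnf17. Capitals mark CACGTG, a palindromic E-box core, and TCCCGC on either strand, an E2F-type core. Both strands were searched, and the motifs can share an end base.
Dazl (chr17:50293621-50293870, minus strand): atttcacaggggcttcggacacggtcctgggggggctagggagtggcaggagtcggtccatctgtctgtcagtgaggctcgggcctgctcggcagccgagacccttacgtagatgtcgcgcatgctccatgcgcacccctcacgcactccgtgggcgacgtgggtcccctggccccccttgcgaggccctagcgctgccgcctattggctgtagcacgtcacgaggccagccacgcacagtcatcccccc
Smc1b (chr15:85131958-85132207, minus strand): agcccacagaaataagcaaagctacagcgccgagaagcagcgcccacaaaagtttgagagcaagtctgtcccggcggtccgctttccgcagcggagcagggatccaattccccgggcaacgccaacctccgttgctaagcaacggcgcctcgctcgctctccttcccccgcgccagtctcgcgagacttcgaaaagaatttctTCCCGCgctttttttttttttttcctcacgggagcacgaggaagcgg
Rec114 (chr9:58741560-58741809, minus strand): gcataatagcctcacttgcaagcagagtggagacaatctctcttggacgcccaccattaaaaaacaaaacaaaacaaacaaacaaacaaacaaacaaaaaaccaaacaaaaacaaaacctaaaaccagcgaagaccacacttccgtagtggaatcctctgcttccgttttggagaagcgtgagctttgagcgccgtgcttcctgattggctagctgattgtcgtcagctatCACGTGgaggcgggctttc
The search used the 300 bases from 250 before to 50 after the start. CACGTG occurred there in 7.15% of 32851 promoters of the table, in 9.50% of 15614 tested genes with a window, and in 12 of 20 germline list genes with a window (60.0%). TCCCGC on either strand occurred in 20% of all promoters, in 30.5% of the tested genes and in 10 of those 20 genes. The Dazl and Smc1b windows hold no CACGTG, and the Rec114 window has it at base 232. Among genes higher in E14 KO on average, 1 of 17 with a window held CACGTG (5.88%), which is near the share of all tested genes.

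Xlr, an X-linked gene of a family expressed in germ and immune cells, had the third largest average difference by size, after Gm5662 and Trh (1.69 ± 0.212 SE, 3.22-fold, adjusted p = 7.9e-05). Its E14 KO arrays were at 6.27 and 7.01 on day 0, 5.43 and 5.30 on day 3, and 7.37 and 6.81 on day 7. J1 KO was at 4.49 to 4.79 on all 3 days, inside the WT range of 3.55 to 5.32. The difference of Gm5662, a predicted gene named after its values were seen, was 2.48 ± 0.252 SE. A like course, with a smaller difference on day 3, was seen in some genes of the 2-cell-like list. Such genes mark rare ESCs that resemble the early embryo. Only 6 of the 19 listed genes were measured, without the Zscan4 genes and Dux. On day 0, 3 of these 6 were called higher in E14 KO, where 0.251% of all genes were. They were Tdpoz3 (1.88 ± 0.393 SE), Usp17la (1.86 ± 0.297 SE) and Usp17lc (1.11 ± 0.2 SE). Usp17ld (0.71), Zfp352 (0.59) and Tcstv3 (0.06) were not called. Tdpoz3 read 5.77 and 6.78 in E14 KO against 4.38 and 4.40 in J1 KO. Without the second E14 KO array of day 0, the day 0 differences of Xlr, Tdpoz3, Usp17la and Usp17lc were 1.66, 1.38, 1.21 and 0.88, and 0 of these 4 were called. Xlr, Tdpoz, Usp17l and Rhox genes have near-identical copies, so probes may read several members, and their values are uncertain as to the copy.

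Further genes higher in E14 KO on average, with all 12 arrays separated, were Zfp951 (1.24 ± 0.12 SE), Arl14epl (1.07 ± 0.0912 SE), Aspa (1.05 ± 0.0802 SE), an enzyme that cleaves N-acetylaspartate, and Mme (1.03 ± 0.149 SE), the cell-surface peptidase neprilysin. Aspa was at 6.40 and 6.76 in E14 KO on day 0 and at 5.25 and 5.15 in J1 KO. Leaving out the second E14 KO array of day 0 took the averages of Arl14epl and Aspa to 0.99 each, and the call of Mme was lost in 4 of 12 omissions, with an average as low as 0.93.

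Genes lower in E14 KO on average were led by Trh, the precursor of thyrotropin-releasing hormone, which ESCs express strongly. On day 0 the E14 KO arrays were at 11.12 and 10.76 and the J1 KO arrays at 13.26 and 13.27, a difference of -2.32 ± 0.506 SE (adjusted p = 0.024). On day 3 they were at 12.30 and 11.87 against 12.72 and 12.64, which was not called. On day 7 they were at 9.56 and 8.90 against 11.55 and 12.10 (-2.59 ± 0.506 SE, adjusted p = 0.0078). Both WT lines were at 12.57 to 12.86 on day 0, where E14 KO stood apart, and at 8.0 to 10.56 on day 7, where J1 KO stood apart. The average of -1.84 ± 0.292 SE thus joins unlike situations. The day 0 call was lost when any of the 4 arrays of that day was left out (differences of -2.50 to -2.14).

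Dppa3 (Stella), which protects DNA methylation in the early embryo and marks naive ESCs, was lower in E14 KO on average (-1.02 ± 0.132 SE, adjusted p = 0.0001), with all 12 arrays separated. Its levels were 7.86 and 8.45 in E14 KO against 9.42 and 9.28 in J1 KO on day 0, and 7.72 in both E14 KO arrays against 8.88 and 8.75 on day 7. A second probe set of Dppa3 gave -0.91. The average sat at the 2-fold limit and was -0.92 without the first E14 KO array of day 0. Platr8, a noncoding RNA of ESCs, was lower on day 0 (-1.76 ± 0.345 SE; 7.35 and 6.93 against 8.94 and 8.86). Bcl6b, a transcriptional repressor, was lower on average (-1.09 ± 0.164 SE), as were Syt11, a synaptotagmin of vesicle traffic (-1.08 ± 0.168 SE), Xkr5 (-1.18 ± 0.164 SE) and Rln3, the hormone relaxin 3 (-1.02 ± 0.104 SE). Rln3 differed by nearly the same amount on each day: -1.03, -1.02 and -1.0. Rln3 and Xkr5 lie on chromosome 8, which is described below as a whole.

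The main pluripotency regulators were not called between the lines on average, while 1 naive gene was higher in E14 KO on average. Pou5f1 differed by -0.04 ± 0.128 SE, Sox2 by 0.14 ± 0.302 SE and Zfp42 by 0.16 ± 0.274 SE on average, with adjusted p of 0.84 or more. On day 7, Pou5f1 was at 11.49 to 11.97 in E14 KO and 11.80 to 11.96 in J1 KO, against 7.95 to 8.98 in WT. Nanog was at 12.35 to 12.83 in all E14 KO arrays and at 11.61 to 12.22 in all J1 KO arrays, without overlap, but its difference of 0.72 ± 0.215 SE (adjusted p = 0.041) was below 2-fold. Tfcp2l1, a transcription factor of the naive network, was the only naive gene of 20 called on average (1.24 ± 0.261 SE, adjusted p = 0.0049). Its E14 KO arrays were at 10.41 to 11.27 and its J1 KO arrays at 9.03 to 9.99. The V6.5 WT minus J1 WT difference of Tfcp2l1 was of the same size (1.22), and the KO difference exceeded it by only 0.02 (adjusted p = 0.98). Tbx3 was higher in E14 KO on day 0 (1.07 ± 0.182 SE; 10.59 and 10.73 against 9.60 and 9.58), again in the direction of V6.5 against J1 in WT (1.04 on average). The naive list median was 0.14, 0.39 and 0.26 on days 0, 3 and 7, with 14, 19 and 16 of 20 members on the E14 KO side. The core pluripotency list, which holds Dppa3, had medians of -0.14, 0.06 and -0.32, with 8, 15 and 4 of 22 members on that side. On day 7, 3 core genes were called lower in E14 KO and 0 higher, where 0.256% of all genes were called lower. Medians of the primed epiblast list were -0.5, -0.1 and -0.41, with 5, 5 and 1 of 12 members on the E14 KO side. Over all genes the median of the average difference was 0.00.

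Among further genes called on day 0 was Neurod1, a neuronal differentiation factor. E14 KO had it at 6.12 and 5.49 and J1 KO at 7.60 and 7.63 (-1.81 ± 0.235 SE, adjusted p = 0.00089), and V6.5 WT, at 6.36 and 6.28, was likewise below J1 WT, at 8.05 and 7.67. Sema6a, an axon guidance ligand (-1.61 ± 0.25 SE), Muc3, a membrane mucin (-1.52 ± 0.275 SE), H2bc8, a histone H2B gene (-1.5 ± 0.274 SE), and Dnmt3a, a de novo DNA methyltransferase (-1.0 ± 0.202 SE), were also lower in E14 KO. Higher in E14 KO were Nnat, an imprinted gene (1.60 ± 0.291 SE; 8.22 and 8.52 against 6.52 and 7.03), Mras, a RAS-family GTPase (1.63 ± 0.227 SE), Msc and Zfp951. Nnat was lower in both KO lines than in any WT array (9.04 to 10.49) on day 0. Of the 20 genes named for day 0, only Dazl, Msc, Neurod1, Rhox13 and Zfp951 kept the call whichever KO array was left out. Day 0 cells were grown on feeder fibroblasts. The 29 measured fibroblast genes had a median difference of 0.26 on day 0 with 26 of 29 on the E14 KO side, 0 were called, and their mean level was 8.69 and 9.23 in E14 KO and 8.44 and 8.73 in J1 KO. The part of feeder RNA in the day 0 differences was not tested. The 14 genes called on day 0 that were also called between V6.5 WT and J1 WT made up 17.7% of the KO calls and 7.37% of the 190 WT calls (0.953% of all genes), and 13 of the 14 had the same sign.

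Day 3 held the fewest differences. Rnf17 (1.43), Msc (1.22), Ttc12 (1.11 ± 0.17 SE), a gene for assembly of dynein arms, Pcmtd1 (1.08 ± 0.13 SE), Steap3, an iron reductase (1.01 ± 0.167 SE), and Pnma5 (1.00 ± 0.169 SE) were higher in E14 KO. Lower were Hapln1, a link protein of the extracellular matrix, the signal peptide peptidase gene H13 (-1.07 ± 0.129 SE) and Rln3 (-1.02). Hapln1 was at 6.12 and 6.36 in E14 KO against 7.89 and 7.70 in J1 KO (-1.55 ± 0.241 SE, adjusted p = 0.013), while WT was at 5.25 to 5.75. On day 7 the lines were not called different (10.23 and 10.28 against 10.07 and 9.50), and the change of the difference from day 3 to day 7 was 2.03 (adjusted p = 0.020). Each of the 9 calls was lost in at least 1 omission. No gene was called for a change of the line difference from day 0 to day 3 (0 or 0.0% by limma's adjusted p, 457 at unadjusted p under 0.05, and 0 to 2 in the omissions).

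Day 7 separated the lines most, and the trophoblast list had the most called genes of the 32 lists. Of 18 measured trophoblast genes 7 were called higher in E14 KO and 0 lower, where 0.742% of all genes were called higher. These were Syna, Rhox6, Rhox9, Krt7, Krt8, Krt18 and Plet1. The list median was 0.46, with 15 of 18 members on the E14 KO side. Members not called included Cdx2 (0.50), Gata3 (0.43), Elf5 (0.36), Hand1 (0.11), Tfap2c (-0.02), Synb (-0.06) and Eomes (-0.32). The calls thus cover only a part of the list. Its members, like those of every list, were chosen with earlier results known, so the count and rank describe the calls only. On day 0 and day 3, 0 of the 18 were called, with medians of 0.26 and 0.11. Syna encodes syncytin-A, which fuses trophoblast cells. It was at 6.33 to 6.86 in both KO lines on days 0 and 3. On day 7 it reached 8.99 and 10.49 in E14 KO, against 7.26 and 6.85 in J1 KO and 6.25 to 6.68 in WT (2.68 ± 0.308 SE, 6.42-fold, adjusted p = 0.00011). Rhox6 and Rhox9, X-linked homeobox genes of the placenta, were at 10.10 and 11.35, and at 10.58 and 11.94, in E14 KO, and at 9.19 and 8.87, and 9.65 and 9.67, in J1 KO. Keratins of simple epithelia also differed: Krt8 was at 12.78 and 12.93 against 11.52 in both J1 KO arrays (1.33 ± 0.273 SE). Krt8 and Krt18 were at a like level in V6.5 WT on day 7 (12.34 to 13.09), and the E14 KO arrays had Krt18 at 12.46 and 12.63. In bulk samples fewer cells of a type and less RNA per cell cannot be told apart. Without the second E14 KO array of day 7 the difference was 0.91 for Rhox9 and 1.07 for Rhox6. The calls of Krt7, Krt8, Krt18 and Rhox9 were each lost in 3 or 4 of 12 omissions, while Syna and Rhox6 kept theirs.

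A cluster of protease inhibitor genes on chromosome 13 held the largest called difference, that of Serpinb9e. Serpinb9 family members inhibit granzymes and related proteases, and several are expressed in the placenta. Of 13 Serpinb genes of this chromosome, 7 were called higher in E14 KO on day 7, where 0.742% of all genes were. All 13 differences were positive, with a median of 1.22. This set was not among the gene lists and was formed around genes already called, so its counts describe the calls only. Serpinb9e was at 9.37 and 11.61 in E14 KO and at 7.76 and 5.12 in J1 KO, against 4.53 to 4.98 in WT (4.05 ± 0.613 SE, 16.6-fold, adjusted p = 0.0011). Its difference ranged from 2.73 to 5.37 when 1 array was left out. On days 0 and 3 it was at 4.40 to 4.82 in all KO arrays. The first J1 KO array was thus also above WT, and the arrays of both KO lines were over 2 log2 units apart. Serpinb9d followed the same array pattern (6.77 and 8.87 against 6.04 and 3.89, 2.86 ± 0.521 SE). Its difference fell to 1.81 without the second E14 KO array and to 1.78 without the second J1 KO array, and neither was called. Serpinb6b (2.09 ± 0.302 SE), Serpinb9b (1.60 ± 0.317 SE), Serpinb9c (1.54 ± 0.281 SE), Serpinb9 (1.28 ± 0.291 SE) and Serpinb6c (1.22 ± 0.208 SE) were the other called members. In gene order all called members but Serpinb6c formed 2 runs of 3 genes, Serpinb6b to Serpinb9b and Serpinb9c to Serpinb9e. These genes are close copies, and probe sets may read more than 1 of them.

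Gjb2 encodes a connexin of gap junctions. It was at 5.96 to 6.77 in all KO arrays on days 0 and 3, and on day 7 at 9.10 and 9.53 in E14 KO against 6.69 and 6.28 in J1 KO and 6.11 to 6.69 in WT (2.83 ± 0.204 SE, 7.12-fold, adjusted p = 3.9e-07). Arhgef6, an X-linked gene, was at 7.72 and 9.19 against 6.25 and 5.22 (2.72 ± 0.363 SE), and S100g, a calcium-binding protein of epithelia, at 10.11 and 10.41 against 7.94 and 7.36 (2.62 ± 0.692 SE, adjusted p = 0.045). The S100g call did not survive any omission, and the second J1 WT array was also high (10.91). Among 29 endoderm genes, Afp, the yolk sac serum protein (1.84 ± 0.485 SE), and Apoa2, an apolipoprotein (1.48 ± 0.274 SE), were higher in E14 KO. No other member was called, and 0.742% of all genes were called higher. The endoderm median was 0.52 and 27 of 29 members lay on the E14 KO side, against 14 on day 0 and 6 on day 3. Afp was at 7.84 and 9.47 in E14 KO, and without the second array its difference was 1.03 and not called.

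The second E14 KO array of day 7 was the higher of its pair for most genes on the E14 KO side. Among the 148 genes higher in E14 KO on day 7 it lay above the first array in 116, by a median of 0.51, and 33 were at least 2-fold apart. Over all 19938 genes it lay above the first in 9091, with a median of -0.03. In J1 KO the same 148 genes had array 2 above array 1 in 64. Of the 51 genes lower in E14 KO, 1 was 2-fold apart between the E14 KO arrays. Sizes on the E14 KO side are therefore less sure than those on the other side. Without that array 158 genes were called, 94 of them among the 199.

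Fewer genes called higher in E14 KO on day 7 came from the lists of p53 targets, imprinted genes and interferon genes. For scale, 0.742% of all genes were called higher that day. The median difference over all genes was -0.026 on day 3 and 0.009 on day 7. Of 15 measured p53 targets, 3 were higher (Btg2, 1.44 ± 0.31 SE; Phlda3, 1.17 ± 0.242 SE; Eda2r, 1.09 ± 0.247 SE), and all 15 differences were positive on days 3 and 7 against 1 of 15 on day 0. Of 28 imprinted genes 3 were higher: Sgce (1.42 ± 0.182 SE), Cdkn1c, a CDK inhibitor that restrains growth (1.33 ± 0.22 SE), and its neighbour Slc22a18 (1.16 ± 0.219 SE). Cdkn1c was at 10.39 and 11.10 in E14 KO, at 9.47 and 9.35 in J1 KO, and at 10.89 and 10.63 in V6.5 WT. Usp18, which dampens interferon signalling, was at 9.49 and 10.60 against 7.60 and 7.78 (2.36 ± 0.498 SE), and Ifih1, an RNA sensor, differed by 1.07 ± 0.283 SE, the only called genes of 22 on the interferon list. Without the second E14 KO array the differences of Ifih1 and Slc22a18 were 0.57 and 0.67. Phlda3 was at 0.72 without the first J1 KO array. Of these 8 genes, Sgce alone kept its call in all omissions.

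**Figure D3:**
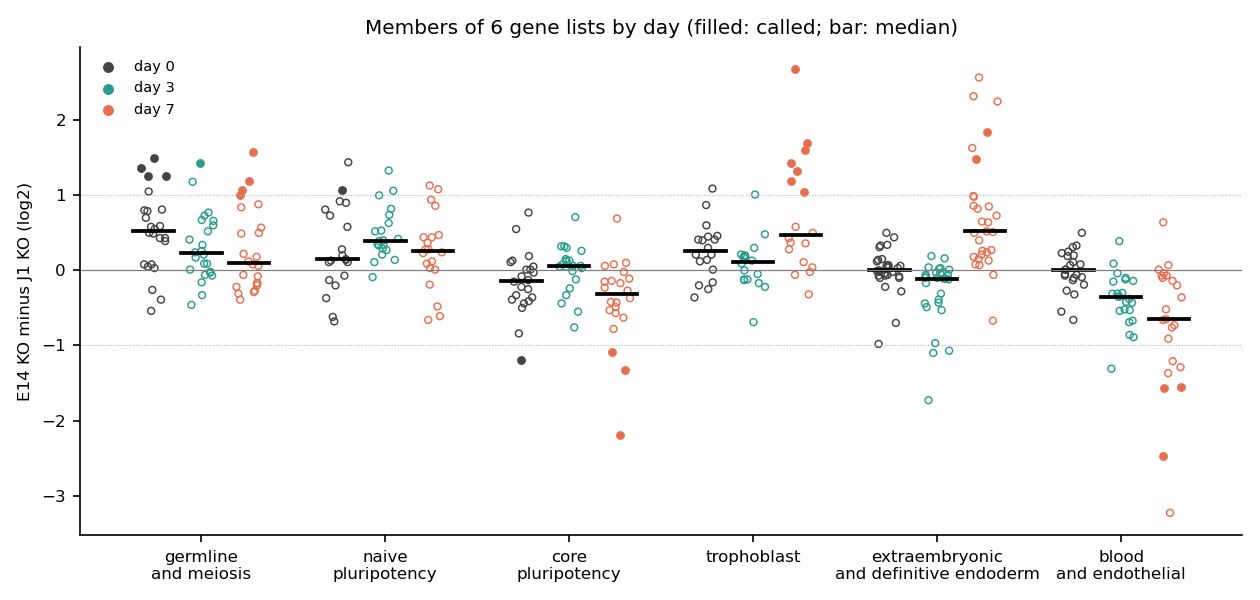
Difference between the KO lines (E14 KO minus J1 KO, log2, y axis) for the measured members of 6 gene lists (x axis) on days 0 (grey), 3 (green) and 7 (orange). Filled points were called and bars are list medians: on day 7, 7 trophoblast genes are called above 0 and 3 blood and endothelial genes below 0, with medians of 0.46 and -0.65.

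On the J1 KO side, some blood and endothelial genes, Nodal antagonists and a hormone receptor were higher on day 7. Of 23 measured blood and endothelial genes, 3 were called lower in E14 KO and 0 higher, where 0.256% of all genes were called lower. The list median was -0.65, against 0.01 on day 0 and -0.35 on day 3. Cdh5, the adhesion protein of endothelium (VE-cadherin), rose from 6.18 and 5.98 on day 0 to 10.23 and 9.32 on day 7 in J1 KO, and was at 6.83 and 7.78 on day 7 in E14 KO (-2.47 ± 0.587 SE, 5.56-fold, adjusted p = 0.024). V6.5 WT was at 11.17 and 10.24. Emcn, another endothelial gene, had a larger difference that was not called (-3.23, adjusted p = 0.053). Kdr, the VEGF receptor of endothelial and blood precursors, was at 8.57 and 8.31 in J1 KO against 6.45 and 7.30 in E14 KO (-1.57 ± 0.278 SE), and WT was higher still (8.87 to 10.38). Tie1, an endothelial receptor, was at 8.26 and 7.92 against 6.57 and 6.51 (-1.55 ± 0.347 SE). E14 KO thus had the lowest level of the 4 clones for Kdr and Tie1 on day 7. Acta2, smooth muscle actin, which is on the fibroblast and the cardiac and muscle lists, was in the same order: 7.79 and 7.53 in E14 KO, 9.30 and 9.54 in J1 KO and 10.17 to 12.63 in WT (-1.76 ± 0.424 SE). Cdh5, Tie1 and Acta2 lost the call in 3 or 4 omissions of a day 7 array and Kdr in 2.

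Lefty1 and Lefty2, neighbouring genes for secreted antagonists of Nodal, were higher in J1 KO. Lefty1 was at 10.42 and 10.74 in J1 KO on day 7, as on day 0 (10.27 and 10.18), and at 8.25 and 8.53 in E14 KO (-2.19 ± 0.321 SE, 4.57-fold, adjusted p = 0.0009). Lefty2 was at 9.76 and 9.85 against 8.52 and 8.42 (-1.33 ± 0.324 SE). In WT both were at 5.19 to 6.56, so they lay above WT in both KO lines. Ina, a neuronal intermediate filament protein present in ESCs, was at 10.02 and 10.22 in J1 KO and 8.02 and 8.23 in E14 KO (-1.99 ± 0.277 SE), and 7.07 to 8.48 in WT. The E14 KO arrays thus lay within the WT range for Ina. Fgf5, a growth factor of primed epiblast, differed by -1.31 ± 0.337 SE but was not called in any omission. Dusp4, a phosphatase of ERK feedback, differed by -1.12 ± 0.267 SE, and Klhl4 by -2.11 ± 0.377 SE, or -1.40 without the first J1 KO array. Lefty1 and Ina kept the call in all omissions and Lefty2 lost it in 4.

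Rxfp1, the relaxin receptor, had the smallest adjusted p of all genes on day 7. It was at 4.35 to 4.68 in all KO arrays on days 0 and 3, and on day 7 at 8.04 and 7.69 in J1 KO against 5.02 and 4.97 in E14 KO and 4.31 to 4.51 in WT (-2.87 ± 0.137 SE, 7.29-fold, adjusted p = 7.9e-10). A level above 5.02 was seen in no array but these J1 KO arrays.

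Whether the line difference itself changed with day was tested by interaction. Between day 0 and day 7 it changed in 23 genes (0.115%), 17 of them towards E14 KO (0.0853%) and 6 towards J1 KO (0.0301%). Between day 3 and day 7 it changed in 23 genes (0.115%), 18 towards E14 KO (0.0903%) and 5 towards J1 KO (0.0251%). The F test over all days called 25 genes (0.125%), and of these only Nostrin was also called on average. The largest shifts towards E14 KO from day 0 to day 7 were those of Gjb2 (2.94 ± 0.289 SE), Syna (2.85 ± 0.436 SE), Arhgef6 (2.73), Aqp8 (2.72), Plbd1 (2.41) and Tns4 (2.20 ± 0.325 SE). Aqp8, a water channel, was at 9.14 and 9.72 in E14 KO on day 7 and at 7.17 and 6.77 in J1 KO, after 5.92 to 6.97 in both on earlier days. Tns4, a focal adhesion protein, was at 8.72 and 9.48 against 6.80 and 7.19. From day 3 to day 7, Adh1, an alcohol dehydrogenase of retinoid metabolism (2.29), Nostrin (2.27) and Dppa1 (2.22) joined them. Dppa1 was at 6.22 and 6.5 in E14 KO on day 7 and at 3.82 to 4.44 in every other array of the series, and Adh1 was at 7.49 and 8.93 in E14 KO on day 7 and at 5.72 to 6.44 in every other.

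Shifts towards J1 KO were led by Rxfp1 (-2.87 ± 0.194 SE from day 0, adjusted p = 3e-07). Olig3, a transcription factor of the dorsal neural tube, rose in J1 KO to 8.11 and 7.87 on day 7 and was at 6.14 and 5.97 in E14 KO and 5.34 to 5.56 in WT (shift of -2.44 ± 0.303 SE). Kdr (-2.07), Tll1, a metalloprotease of heart development (-1.58), Ucma (-1.51) and Scrn1 (-1.47) shifted from day 0, and Ina (-2.07), Piezo2, a mechanosensitive channel (-1.87), and Irf1, an interferon-response factor (-1.31), from day 3. For Irf1 a second probe set gave -0.10 on day 7 against -0.71, so the probe sets disagreed. Gjb2, Olig3, Rxfp1 and Tns4 kept their day 0 to day 7 call, and Dppa1, Gjb2 and Rxfp1 their day 3 to day 7 call, in all omissions. The counts depended on the pooled spread. With the 12 KO arrays alone they were 67, 68 and 73 in the same order, and without the discordant J1 WT pair of day 7 they were 104, 91 and 117. Without the first E14 KO array of day 7 they were 78, 86 and 76, and in the other omissions 10 to 27, 7 to 19 and 9 to 19.

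**Figure D4:**
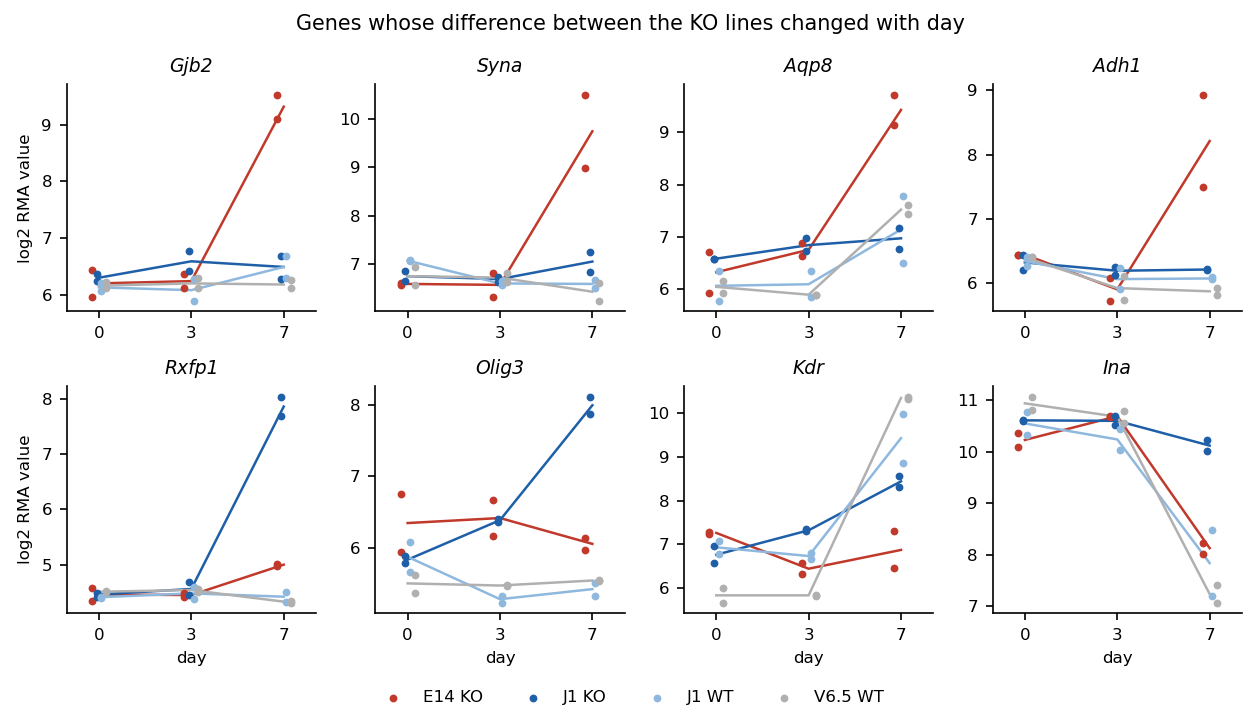
Level of 8 genes (log2 RMA value, y axis) by day (x axis) in the 4 clones. Points are arrays and lines join means of 2 arrays: Gjb2, Syna, Aqp8 and Adh1 rise from day 0 to day 7 in E14 KO (red) with no called change in J1 KO (dark blue), Rxfp1, Olig3 and Kdr are higher in J1 KO on day 7, and Ina falls in E14 KO.

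The genes called on day 7 were chosen on the same day 7 arrays that enter their changes over time, so counts of rises and falls among them describe the calls and support nothing further. Of the 148 genes higher in E14 KO on day 7, 93 rose from day 0 to day 7 in E14 KO and 9 rose in J1 KO, with median changes of 1.24 and 0.18. For scale, 2.47% of all genes rose in E14 KO and 1.92% in J1 KO over that time. Of the 51 genes lower in E14 KO, 20 rose in J1 KO and 1 in E14 KO, while 7 fell in E14 KO and 0 in J1 KO, where 0.562% and 0.436% of all genes fell. Their median changes were -0.33 in E14 KO and 0.36 in J1 KO. Of the 199 genes 25 had already been called on day 0.

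Position relative to WT described the average differences further, with the caution that these comparisons share arrays. The genes were also chosen for a difference that enters these positions, so the counts describe the calls only. The share of all genes lying above or below both WT lines was not computed. Of the 27 genes higher in E14 KO on average, E14 KO lay above both WT lines in 27 and J1 KO in 22. Against J1 WT, 25 of the 27 were called higher in E14 KO (1.62% of all genes) and 6 in J1 KO (0.903%). Of the 11 genes lower in E14 KO, J1 KO lay above both WT lines in 9 and E14 KO below both in 8. V6.5 WT and J1 WT, compared in the same way with no shared array, differed in 85 genes (0.426%). Of the 38 KO genes 1 was also among these 85. The test of E14 KO minus J1 KO against V6.5 WT minus J1 WT called 215 genes (1.08%). In 140 of them the signed KO value was above the signed WT value, which need not mean a larger difference in KO. The pairs hold unlike lines, so the test does not compare the same line difference between genotypes. J1 WT also had a shift on chromosome 11, given below, which enters every difference from J1 WT. On day 7 the overlap was 10 of 199 KO calls (5.03%) and 10 of 198 WT calls (5.05%, with 0.993% of all genes called in WT), and 5 of the 10 had the same sign. The WT calls of that day rest on the discordant J1 WT pair, whose arrays were at least 2-fold apart in 1256 genes (r = 0.962).

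Several groups tied to Polycomb showed no called difference between the lines on average or on any day: 13 PRC2 components, 17 PRC1 components, 37 Hox genes and 39 transcripts of the imprinted Dlk1 to Dio3 region. Meg3, the noncoding RNA of that region, was at 6.91 to 8.62 in all KO arrays and at 9.76 to 12.09 in WT, and differed by 0.29 ± 0.155 SE between the KO lines. Rian, a neighbouring noncoding RNA, differed by 0.15 ± 0.176 SE. Cdkn2a, a senescence gene under Polycomb control, was at 8.21 to 9.47 in KO and 6.80 to 7.64 in WT, with -0.15 ± 0.158 SE between the lines. Igf2 (-0.10 ± 0.144 SE), Xist (0.29 ± 0.169 SE) and the 32 proteasome genes were not called either. These results do not show equality, since differences under 2-fold would not be called. With 0.191% of all genes called on average and 0.998% on day 7, groups of this size without a call are near that share. The Dlk1 to Dio3 list was also dim, with a mean level of 5.36 to 5.62 in the KO arrays. Lower quartiles of the arrays were 5.53 to 5.73, so differences there could hardly be seen.

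The line difference also varied by chromosome. On chromosome 8 the median difference over 955 genes was -0.23, with -0.21, -0.26 and -0.21 on days 0, 3 and 7, and 18.8% of genes were on the E14 KO side. Among its 482 genes with a mean level of at least 8 in the KO arrays, 463 (96.1%) were lower in E14 KO, with a median of -0.39. The shift ran along the whole chromosome, with medians of -0.16, -0.26, -0.22 and -0.28 in 4 successive parts. Relative to each gene's mean over the series, chromosome 8 medians lay between -0.20 and -0.13 in the 6 E14 KO arrays and between 0.02 and 0.09 in the 18 others. On day 7, 10 chromosome 8 genes (1.05%) were called, near the 0.998% of all genes, so only their direction stood out. All 10 were lower in E14 KO, among them Cdh5, Dusp4 and Tll1, and so were Xkr5 and Rln3 on average. Chromosome 1 had the opposite sign, with a median of 0.11 and 73.4% of 1122 genes on the E14 KO side. There the shift faded along the chromosome (0.28, 0.18, 0.11 and 0.00), and V6.5 WT (0.01 to 0.08) resembled E14 KO (0.05 to 0.08) while both J1 clones lay between -0.08 and -0.05. Msc, Cd55, Tfcp2l1 and Slc40a1 are on chromosome 1. The other 18 chromosomes, X included, had medians of -0.01 to 0.03, and the 9 measured genes of chromosome Y had 0.19. On chromosome 11 it was J1 WT that stood apart, with array medians of 0.09 to 0.14 against -0.06 to -0.02 in the other clones. The V6.5 WT minus J1 WT median there was -0.19. DNA copy number was not measured.

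**Figure D5:**
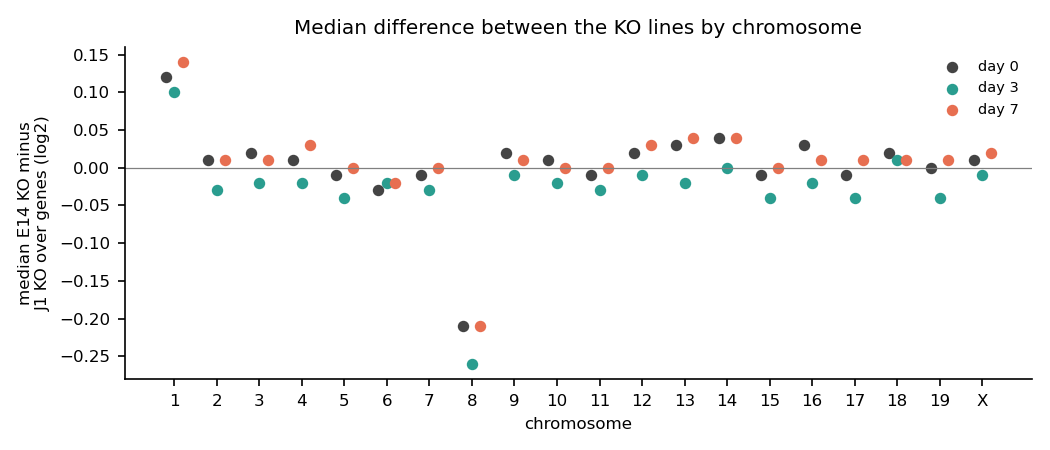
Median over genes of the difference between the KO lines (E14 KO minus J1 KO, log2, y axis) for each chromosome (x axis) on days 0, 3 and 7. Chromosome 8 lies at -0.26 to -0.21 and chromosome 1 at 0.10 to 0.14 on the 3 days, and the others plotted lie near 0 (chromosome Y is not plotted).

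With each array centred on its chromosome medians, 36 genes were called on average, 67 on day 0, 163 on day 7 and 15 by the F test, of which 33, 67, 161 and 15 were also called without centring. The X chromosome had no such shift (median 0.01), yet 27 of its 739 genes (3.65%) were called on day 7, 23 of them higher in E14 KO, against 0.998% of all genes. They included Arhgef6, Xlr, S100g, Rhox6, Rhox9, Rhox13, Nxf7 and the neighbours Zfp36l3 (1.64 ± 0.294 SE) and 3830403N18Rik (1.82 ± 0.227 SE), which flank Xlr in gene order.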

How the data were processed

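Total RNA of 24 samples was hybridised to Affymetrix Mouse Gene 1.0 ST arrays, 2 for each line, genotype and day. The deposited values are on a log2 scale; per the submitters' processing notes, the authors used RMA in Affymetrix Power Tools (the version is not given in the sources used). The table runs from 2.08 to 14.4, and the array medians from 6.96 to 7.14; 0 columns belong to other samples. Of 35556 probe sets, 21789 carry 1 gene symbol, 1621 several and 12146 are not listed in the annotation used here, and 21698 matched RefSeq genes. A gene took its probe set with the highest mean over arrays, which left 19938 genes.

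limma (version 3.58.1, R 4.3.3, statmod 1.5.0) fitted 12 group means to all 24 arrays (12 residual degrees of freedom) with empirical Bayes moderation. Contrasts gave the E14 KO minus J1 KO difference averaged over days, on each day, and its change between days, with an F test over both changes. Calls needed an adjusted p under 0.05 (Benjamini-Hochberg, 19938 genes) and a difference of at least 2-fold, or for the F test daily differences at least 2-fold apart. Tables and figures were made with Python 3.11.15, pandas 2.3.3, numpy 2.4.6 and matplotlib 3.10.9.

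Genes are named by rule: the largest called differences each way on average (up to 12, arrays not overlapping), by day and by change between days (up to 6 each), up to 4 called members of each list, genes in the 5 longest runs of neighbouring called genes, and a fixed set of control genes. Rec114, Gm5662, Taf7l, Plet1, Serpinb6c, Emcn, Slc40a1, Nxf7 and the chromosome 8 and X examples were named after their values were seen. The set of Serpinb genes of chromosome 13 was formed around genes already called. The members and the gene lists were chosen with earlier results of these data known. Of the motif windows, 15614 tested genes had one. Alternatives covered the arrays in the fit, replicate number as a block, averaging of arrays, dim genes, normalization, variance model, array weights, probe set choice, fold minimum, chromosome centring and omission of each KO array.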

Additional observations from a re-analysis of the deposited data

Results flagged for a closer look

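The results below stand out in a test of the difference itself. Either the KO line difference was unequal between days, or E14 KO minus J1 KO was unequal to V6.5 WT minus J1 WT. The line difference changed from day 0 to day 7 in 23 genes and from day 3 to day 7 in 23 genes, the F test over days called 25, and the KO line difference differed from the WT line difference in 215.

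From day 0 to day 7 the E14 KO minus J1 KO difference (log2) moved by 2.94 for Gjb2, 2.85 for Syna, 2.73 for Arhgef6, 2.72 for Aqp8, 2.41 for Plbd1 and 2.20 for Tns4. It moved the other way by -2.87 for Rxfp1, -2.44 for Olig3, -2.07 for Kdr, -1.58 for Tll1, -1.51 for Ucma and -1.47 for Scrn1. From day 3 to day 7 the shifts were 3.18 for Gjb2, 2.80 for Syna, 2.55 for Aqp8, 2.29 for Adh1, 2.27 for Nostrin and 2.22 for Dppa1. Shifts towards J1 KO were -2.75 for Rxfp1, -2.07 for Ina, -1.96 for Olig3, -1.87 for Piezo2 and -1.31 for Irf1. The E14 KO arrays of day 7 were far apart for Syna (8.99 and 10.49), Arhgef6 (7.72 and 9.19), Adh1 (7.49 and 8.93) and Plbd1 (9.26 and 10.68). Without the second of these arrays the shifts were 2.10 for Syna, 2.00 for Arhgef6 (adjusted p = 0.15) and 1.70 for Plbd1 from day 0, and 1.57 for Adh1 from day 3, and without the first they were 3.60, 3.46, 3.12 and 3.01. The Arhgef6 call was lost in 10 of the 12 omissions of 1 KO array, that of Adh1 in 6 and that of Plbd1 in 3, and the calls of Syna from day 0 and day 3 in 2 and 4.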

How the results depend on the processing

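Counts of called genes are given in the order average, day 0, day 3, day 7 where they are listed together. Without a fold minimum they were 1873, 302, 50 and 651, and at 1.5-fold 418, 276, 50 and 583. The V6.5 minus J1 WT count was 2644 and 548 under these settings, and the KO against WT line difference 2347 and 1187. With the 12 KO arrays alone day 3 had 18 calls, the changes from day 0 and day 3 to day 7 had 67 and 68, and the F test 73. Without the J1 WT day 7 arrays these 4 counts were 22, 104, 91 and 117. With array weights the changes had 81 and 35 calls and the F test 68. Averaging the arrays of a day, with day as an additive block, gave 10 genes called on average, or 33 with KO arrays alone. Centring on chromosome medians gave 15 by the F test.

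Leaving out each KO array gave 26 to 48 calls on average, 14 to 81 on day 0, 1 to 27 on day 3, 115 to 211 on day 7, 0 to 2 for the change from day 0 to day 3, 10 to 78 and 7 to 86 for the changes to day 7, 9 to 76 by the F test, 187 to 230 for KO against WT and 85 for WT. Replicate numbers were not used to pair arrays in the main fit. Deviations of first arrays from their group means did correlate between KO groups (median r = 0.25, over 0.1 in 12 of 15 pairs). Whether the numbers mark shared runs was not tested. With the replicate block the counts were 38, 88, 11 and 199, then 19 and 22 for the changes to day 7 and 22 by the F test. Of the last 3 counts, 18, 20 and 18 genes were also called in the main fit. Of 2901 gene values under alternatives, 2525 kept direction and side of the threshold, 374 lost the call, 2 gained one (Nanog) and 0 reversed. The cause of these changes was not tested. With 2 arrays a group, differences near 2-fold are uncertain, and dim genes are limited by background.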

Other observations

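Probe sets without a single gene symbol were fitted beside the others over all 35556 probe sets. On average over days, 119 of the 12146 unlisted probe sets were higher in E14 KO and 5 lower (1.02% called). Of the 1621 probe sets with several symbols, 48 were higher and 0 lower (2.96%), against 42 higher and 10 lower among the 21789 with 1 symbol (0.239%). On day 7 the unlisted probe sets had 76 higher and 3 lower (0.65%). These probe sets were given no gene names here.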
